A study of Homo sapiens with 6 samples.

Results

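The RAS and MAPK cascade was described here through 50 genes of A549 cells, chosen by gene symbol from a list of RAS proteins, RAF, MAP4K, MAP3K, MAP2K and MAPK kinases and their regulators. All 50 were found in the deposited count table of 32192 genes and in the deposited FPKM table of 31951 genes. The rule used symbols alone, but the members and the gene lists used below were chosen with earlier results of these data known. Their shares are therefore set beside those of all genes as a description. All 50 passed the filter on low counts. A549 is an established human lung adenocarcinoma line. The cells were transiently transfected either with a plasmid carrying the APEX1 coding sequence with a FLAG tag in pIRES-hrGFP-1a (APEX1-OE, 3 libraries) or with the control plasmid (Ctrl, 3 libraries), and both groups shared the line and the transfection. APEX1 is a base excision repair endonuclease that also binds RNA. The labels do not say that the replicates were separate cultures, so p-values here measure the spread between these libraries, which may be technical. The comparison asks whether transcript levels of the cascade differ between cells with extra APEX1 and control cells.

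RAS proteins are small GTPases that switch between a GDP-bound resting form and a GTP-bound active form. Receptors recruit the adaptor GRB2 and the exchange factors SOS1 and SOS2, which load RAS with GTP, and GTPase-activating proteins such as NF1 and RASA1 return it to rest. Active RAS recruits RAF kinases, which phosphorylate MAP2K1 and MAP2K2, and these phosphorylate the ERK kinases. Parallel arms run through MAP4K and MAP3K kinases to other MAP2K kinases and on to the JNK, p38 and ERK5 kinases. Sprouty and SPRED proteins restrain the ERK arm and RSK kinases act below it. The ERK arm is a frequent driver of growth in lung adenocarcinoma, and most of its control lies in phosphorylation, which RNA levels do not show.

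Libraries held 28131955 to 41009197 counts in all, and the 50 genes took between 0.233% and 0.253% of them. APEX1 itself was higher in APEX1-OE by 2.42 on the log2 scale (SE 0.171, adjusted p = 0.00809, edgeR quasi-likelihood test), with a mean of 689 ± 75.7 FPKM against 126 ± 2.5 (SD, n = 3 libraries each). Transcripts of the plasmid and of the chromosomal gene were not separated. All 6 fixed markers of A549 were high, from 149 FPKM for AKR1C1 to 3069 for KRT8 in Ctrl. Of 6 fixed markers of other cell types, CD3E and PECAM1 stood under 0.05 FPKM in Ctrl, PTPRC had at most 1 count in a library, and COL1A1, CD14 and ACTA2 had 0.627, 2.78 and 25.8 FPKM. A difference among the libraries cut across the conditions. The first principal component of log2 CPM (CPM, TMM-scaled counts relative to library size) held 72.6% of the variance and separated APEX1-OE replicate 1 and Ctrl replicates 1 and 2, called side A here, from APEX1-OE replicates 2 and 3 and Ctrl replicate 3, called side B. APEX1-OE thus had 1 library on side A and 2 on side B, and Ctrl 2 on side A and 1 on side B. Libraries of the same side were not alike. On side A, APEX1-OE replicate 1 scored -58.5 on the component, and Ctrl replicates 1 and 2 scored -32.7 and -31.1. On side B, APEX1-OE replicates 2 and 3 scored 33.1 and 49.9, and Ctrl replicate 3 scored 39.2.

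The levels of the cascade genes ranged widely. Levels between genes were compared in FPKM, fragments per kilobase of transcript, scaled to the mapped reads of the library. The transcript lengths behind these values were not given in the sources used here. Orders and ratios between genes therefore hold for the FPKM as deposited, and the part of GC content in them was not tested. In Ctrl the median over the 50 genes was 4.32 FPKM. Only MAP2K2 had a Ctrl mean over 100 FPKM, 11 genes lay over 10 and 8 lay under 1. RASGRF2, MAPK13 and MAP3K5 stayed under 1 FPKM in all 6 libraries. In the FPKM values the groups overlapped for every one of the 50 genes except SPRY2 and PLA2G4C, both higher in APEX1-OE, and over all genes tested 1.19% were entirely higher and 1.77% entirely lower. Values are given for replicates 1, 2 and 3 in this order.

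**Figure D1:**
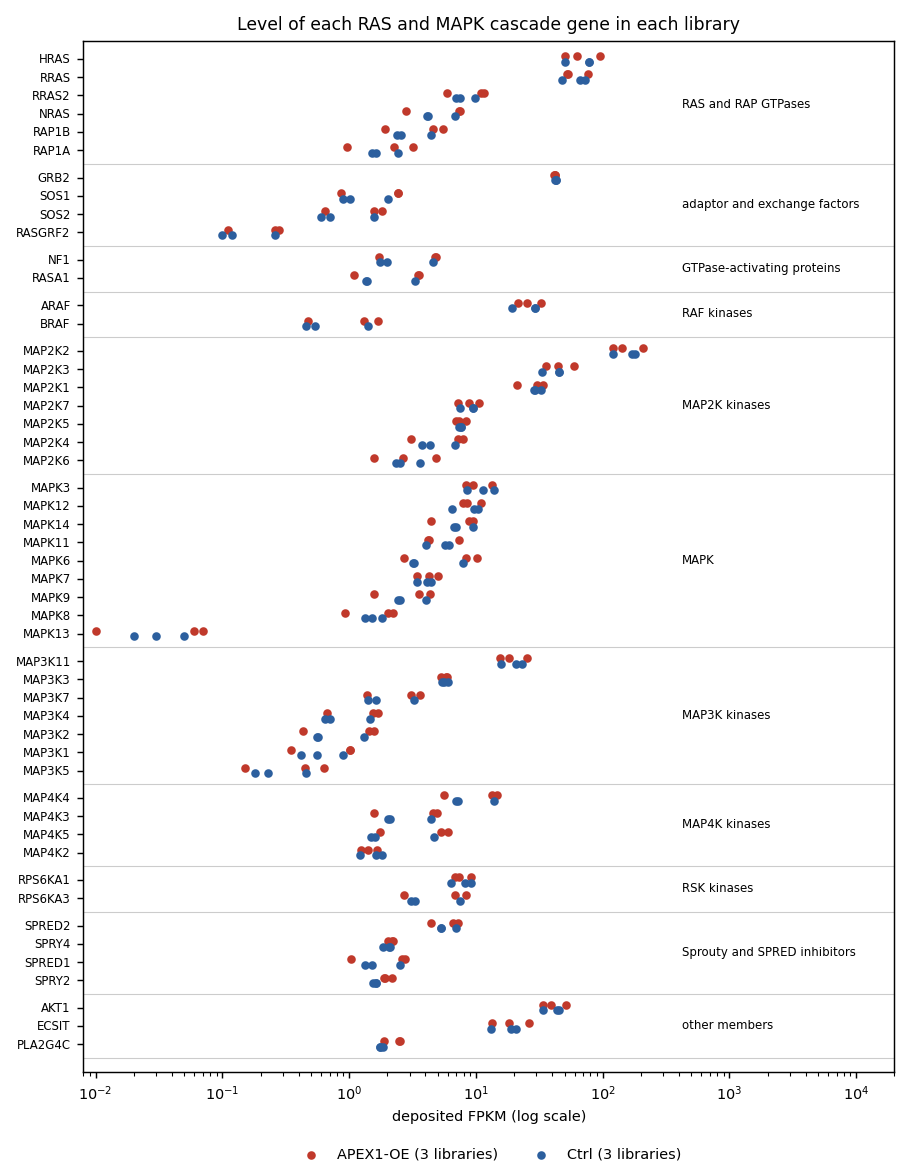
Deposited FPKM (logarithmic axis) of the 50 cascade genes, ordered by role, with 1 point per library and APEX1-OE and Ctrl in different colours. The points run from 0.01 FPKM for MAPK13 in APEX1-OE replicate 1 to 207 FPKM for MAP2K2 in the same library, and for most genes the colours are mixed.

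Among the RAS and RAP GTPases, HRAS was the most abundant, with 95.6, 62.2 and 50.3 FPKM in APEX1-OE and 77.6, 77.6 and 49.97 in Ctrl. RRAS followed closely and lay under HRAS in 5 of 6 libraries, so these neighbours were not separated. RRAS2, NRAS, RAP1B and RAP1A came next in this order of FPKM in 6 of 6 libraries. In CPM, which is not scaled for length, RAP1B had a Ctrl mean of 54.6, above 27.8 for RRAS2 and 27.3 for NRAS. RAP1A, a RAS-related GTPase of cell adhesion, was the lowest with 0.96, 2.26 and 3.18 FPKM in APEX1-OE and 1.52, 1.64 and 2.44 in Ctrl. HRAS was high and RAP1A low on side A, in either condition.

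The adaptor GRB2 varied little between libraries in FPKM, with 41.5, 41.7 and 42.2 FPKM in APEX1-OE and 42.5, 43.1 and 41.8 in Ctrl. It exceeded the exchange factor SOS1 by 17.0-fold to 48.3-fold within each library. SOS1 had 0.86, 2.45 and 2.45 FPKM in APEX1-OE and 0.89, 1.01 and 2.02 in Ctrl, and the related SOS2 lay under it in 6 of 6 libraries. RASGRF2, a calcium-responsive exchange factor, was listed with 0.11, 0.28 and 0.26 FPKM in APEX1-OE and 0.12, 0.10 and 0.26 in Ctrl. The GTPase-activating proteins were both low. NF1 had 1.72, 4.74 and 4.81 FPKM in APEX1-OE and 1.98, 1.74 and 4.55 in Ctrl, and RASA1 had 1.09, 3.48 and 3.58 FPKM in APEX1-OE and 1.35, 1.39 and 3.28 in Ctrl. Both stood higher in the 3 side B libraries than in the 3 side A libraries.

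Of the RAF kinases measured here, ARAF had 32.6, 25.5 and 21.4 FPKM in APEX1-OE and 29.3, 29.1 and 19.3 in Ctrl, and BRAF had 0.47, 1.68 and 1.31 FPKM in APEX1-OE and 0.54, 0.46 and 1.41 in Ctrl. ARAF transcripts exceeded those of BRAF in 6 of 6 libraries, by 13.7-fold to 69.3-fold. The width of that range followed the sides, since ARAF was lower and BRAF higher on side B. Of the 7 MAP2K kinases, MAP2K2, an activator of ERK, stood highest with 207, 142 and 120.5 FPKM in APEX1-OE and 181, 171 and 120.0 in Ctrl. It exceeded MAP2K3, an activator of p38 kinases, by 3.20-fold to 4.01-fold. MAP2K1, the partner of MAP2K2, had 21.2, 30.1 and 33.6 FPKM in APEX1-OE and 29.4, 28.8 and 32.8 in Ctrl and lay under MAP2K3 in each library, by as little as 1.02-fold. MAP2K7 and MAP2K4 of the JNK arm and MAP2K5 of the ERK5 arm lay between 3.09 and 10.6 FPKM. MAP2K6, a p38 activator, was lowest with 1.58, 2.67 and 4.83 FPKM in APEX1-OE and 2.54, 2.36 and 3.60 in Ctrl.

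Among the 9 MAPK genes, MAPK3, which encodes ERK1, had the highest Ctrl mean with 13.4, 8.38 and 9.40 FPKM in APEX1-OE and 13.8, 11.4 and 8.43 in Ctrl. MAPK12 (p38 gamma), MAPK14 (p38 alpha), MAPK11 (p38 beta), MAPK6 (ERK3) and MAPK7 (ERK5) had Ctrl means between 4.0 and 8.87 FPKM, and their order was not stable. MAPK12 exceeded MAPK14, MAPK11 exceeded MAPK6 and MAPK7 exceeded MAPK6 in the 3 side A libraries, and each of these orders was turned in the 3 side B libraries. There MAPK14 also exceeded MAPK3, with 8.82 and 9.50 FPKM in APEX1-OE replicates 2 and 3 and 9.52 in Ctrl replicate 3. MAPK3 was thus the highest of the class only on side A. MAPK9 and MAPK8, the JNK genes, were lower still, with MAPK9 1.603-fold to 2.23-fold above MAPK8. MAPK13 (p38 delta) had 3, 22 and 17 counts in APEX1-OE and 12, 6 and 8 in Ctrl, too few to rank beyond its place under the rest.

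MAP3K11, a mixed-lineage kinase of the JNK arm, led the MAP3K genes with 25.1, 18.2 and 15.6 FPKM in APEX1-OE and 22.9, 20.8 and 15.8 in Ctrl, 2.94-fold to 4.27-fold above MAP3K3 in each library. MAP3K5, also called ASK1 and known from the oxidative stress response, was lowest with 0.15, 0.45 and 0.63 FPKM in APEX1-OE and 0.23, 0.18 and 0.46 in Ctrl. MAP3K4, MAP3K2 and MAP3K1 had overlapping ranges between 0.35 and 1.69 FPKM. In the MAP4K class, MAP4K4 led with 5.57, 13.5 and 14.7 FPKM in APEX1-OE and 7.27, 6.92 and 13.9 in Ctrl, 2.96-fold to 3.55-fold above MAP4K3. MAP4K5 and MAP4K3 exchanged order between libraries, and MAP4K2 had 1.67, 1.23 and 1.41 FPKM in APEX1-OE and 1.82, 1.63 and 1.21 in Ctrl. MAP4K4 was higher on side B and MAP4K2 was lower there.

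RPS6KA1 and RPS6KA3, both RSK kinases that ERK activates, differed in which side was high. RPS6KA1 had 9.10, 7.35 and 6.90 FPKM in APEX1-OE and 9.16, 8.18 and 6.38 in Ctrl. RPS6KA3 had 2.70, 6.81 and 8.40 FPKM in APEX1-OE and 3.29, 3.09 and 7.51 in Ctrl. Their ranges overlapped, and RPS6KA1 was the higher in 4 of 6 libraries. SPRED2 led the Sprouty and SPRED inhibitors with 4.39, 6.62 and 7.23 FPKM in APEX1-OE and 5.28, 5.33 and 6.96 in Ctrl. SPRY4, SPRED1 and SPRY2 had overlapping ranges from 1.04 to 2.77 FPKM. The remaining members were AKT1, a kinase that PI3K signaling activates, ECSIT, an adaptor of the Toll pathway that is also needed for mitochondrial complex I assembly, and PLA2G4C, a phospholipase A2. AKT1 had 51.6, 39.4 and 34.0 FPKM in APEX1-OE and 45.6, 43.4 and 33.6 in Ctrl, ECSIT had 26.4, 18.2 and 13.4 FPKM in APEX1-OE and 18.8, 20.8 and 13.2 in Ctrl, and both exceeded PLA2G4C in each library.

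The difference between the sides ran through the cascade and went with the GC content of the transcripts. In these bulk libraries fewer cells with a transcript and less RNA per cell cannot be told apart, and whether the difference was technical was not tested. Of the 50 genes, 26 had all 3 side B libraries above all 3 side A libraries, against 35.5% of the 16971 genes tested, and 18 had them all below, against 30.9%. Side was read from these same data, so these counts are a description without a test. The highest CPM of a gene was a median of 2.17 times its lowest over the 6 libraries, from 1.18 times for SPRY4 to 4.55 times for MAPK13, and 31 genes exceeded 2 times. The GC content of the canonical transcript (GENCODE 44, GRCh38) ranged from 36.3% to 66.6%. The difference side B minus side A fell with GC content over the 50 genes (Pearson r = -0.906, Spearman rho = -0.829), and over 16746 tested genes rho was -0.804. These points are genes of the same 6 libraries, so no p is given.

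Every one of the 21 cascade genes with a GC content under 45% was higher on side B, by a median of 0.98 on the log2 CPM scale, against 0.75 for all genes of that class. They hold NF1, RASA1, BRAF, SOS1 and the JNK genes MAPK8 and MAPK9, and MAP4K5 showed the widest difference with 1.54. Every one of the 15 genes with a GC content over 55% was lower on side B, by a median of -0.65, against -0.53 for all genes of that class. HRAS at -0.81, MAP2K2 at -0.73, MAPK3 at -0.74 and AKT1 at -0.58 were among them. The 14 genes in between had a median of 0.20, and SPRY2 (-0.03), SPRY4 (-0.08) and PLA2G4C (-0.11) were near 0. Transcript length differed between the GC classes too. Canonical transcripts of cascade genes ran from 986 bases (RRAS) to 4752 (MAP3K3) over 55% GC. Under 45% GC they ran from 2343 (RRAS2) to 13405 (MAP2K6). Whether the difference between the sides goes with length or with GC content was not tested.

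**Figure D2:**
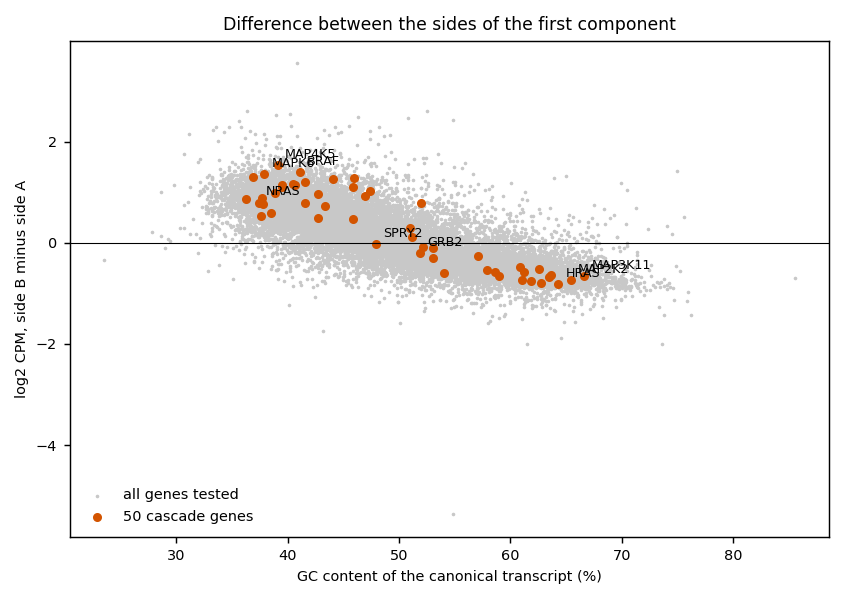
Difference in log2 CPM between the means of side B and side A (vertical axis) against the GC content of the canonical transcript in percent (horizontal axis), with 1 point per tested gene and the 50 cascade genes in colour. The cascade genes follow the slope of all genes, from positive values under 45% GC to negative values over 55% GC.

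**Figure D3:**
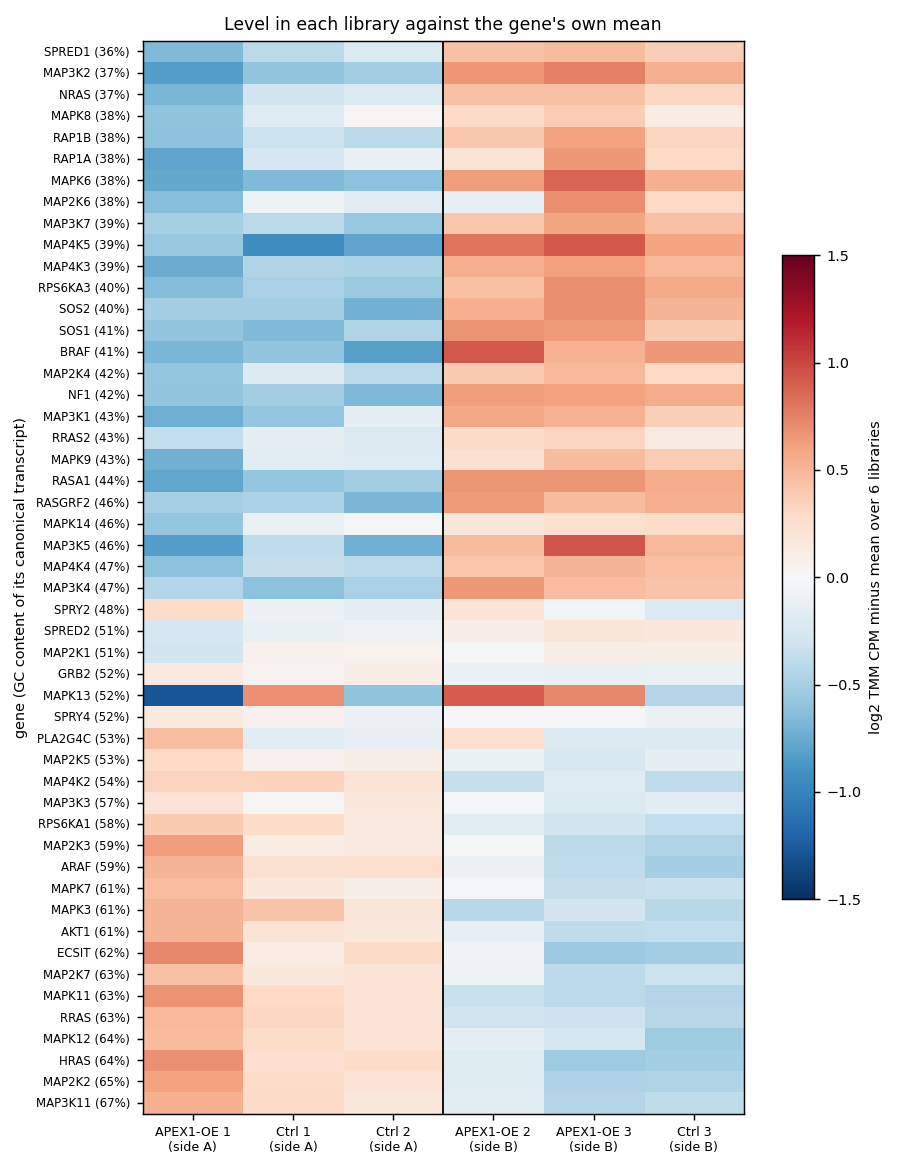
Log2 CPM of each of the 50 cascade genes in the 6 libraries, with the mean of the gene taken off, libraries ordered by side and genes by GC content. Colour changes between the 3 side A and the 3 side B libraries at both ends of the GC range, and MAP4K5 has the widest difference between the sides, 1.54.

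Between APEX1-OE and Ctrl, edgeR's quasi-likelihood test called 0 of the 50 cascade genes (threshold 0.05 on the adjusted p), against 0.00589% of the 16971 genes tested, a share that stands for APEX1 alone. At an unadjusted p under 0.05 the count was 0 of 50, against 0.695% of all genes, and the adjusted p of each member was 1.00. DESeq2 and limma on the FPKM values also called 0 of the members they tested. Log2 fold changes (APEX1-OE over Ctrl) ranged from -0.13 for MAP2K1 to 0.72 for MAP4K5, with SEs from 0.176 to 0.575. Of the 50 estimates, 40 lay above 0 (80.0%, against 57.5% of all genes), with a median of 0.16 against 0.03. In the class under 45% GC 21 of 21 estimates lay above 0 with a median of 0.32, and in that over 55% GC 10 of 15 with a median of 0.0079. The part of the uneven sides in these estimates is treated in the fit with side as a term, given after the single genes.

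**Figure D4:**
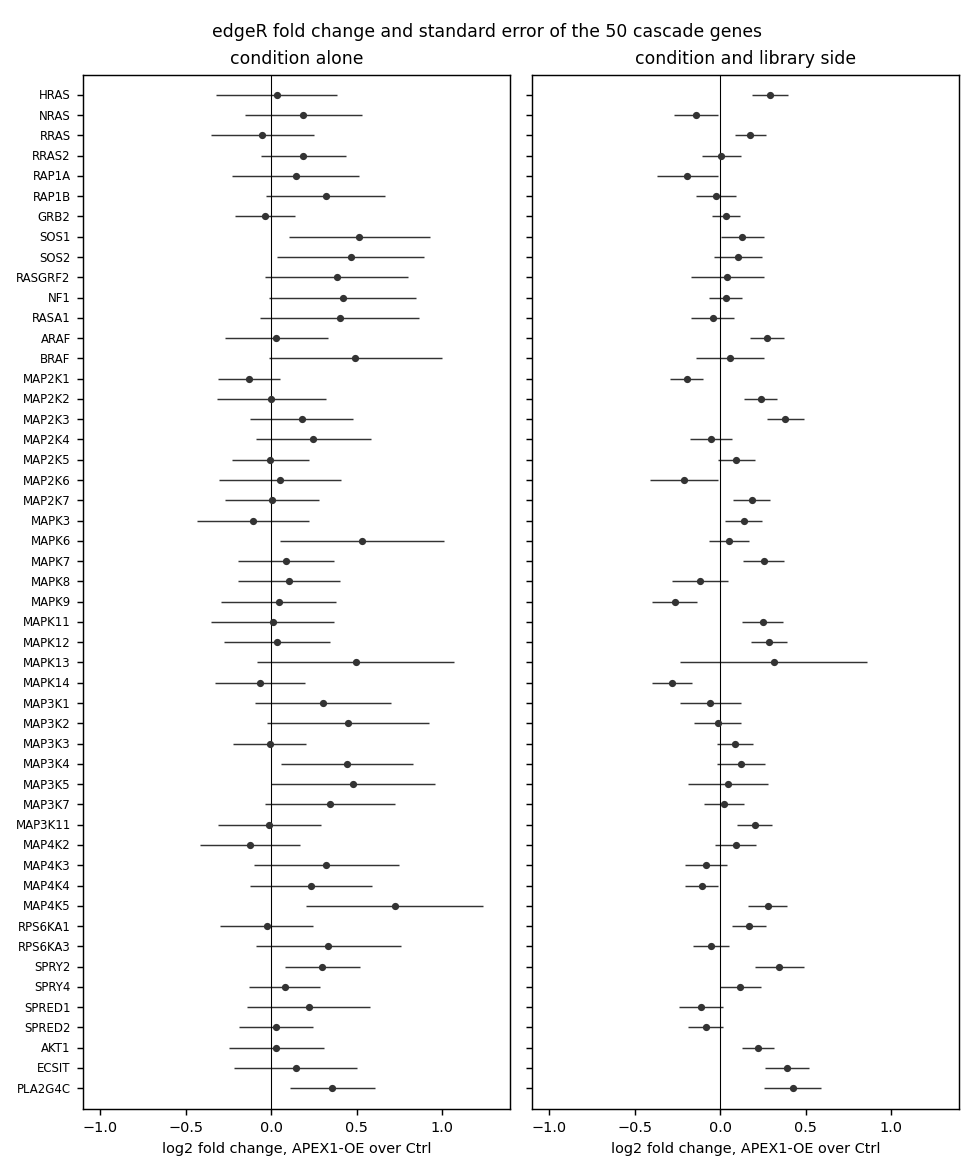
Log2 fold change of APEX1-OE over Ctrl with its SE for each of the 50 cascade genes, from the fit with condition alone and from the fit with the side of the library as a further term. The median SE is 0.34 in the first and 0.118 in the second, and the estimates range from -0.28 to 0.42 in the second.

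MAP4K5, a germinal center kinase family member that feeds the JNK arm (ENSG00000012983.11, on chromosome 14 from 50418501 to 50561126 of GRCh38), had the highest estimate. Its values were 10.5, 27.2 and 29.6 CPM in APEX1-OE and 8.18, 9.02 and 23.5 in Ctrl. The groups overlapped, since APEX1-OE replicate 1 lay below Ctrl replicate 3, and the log2 fold change was 0.72 (SE 0.519). Within sides it was 0.29 on side A and 0.27 on side B. MAPK6 followed, with 19.9, 52.2 and 62.1 CPM in APEX1-OE and 21.5, 22.2 and 49.2 in Ctrl and a log2 fold change of 0.53 (SE 0.479). SOS1 was next, with 10.1, 24.3 and 23.6 CPM in APEX1-OE and 9.63, 11.1 and 19.9 in Ctrl and 0.52 (SE 0.413). In both genes APEX1-OE replicate 1 lay with Ctrl replicates 1 and 2, and within sides the values were -0.13 and 0.21 for MAPK6 and -0.03 and 0.27 for SOS1. Leaving out APEX1-OE replicate 1 gave unadjusted p under 0.05 for these 3 genes, RAP1B and MAP3K2, all higher in APEX1-OE, against 5.11% of all genes higher at that p, and the smallest adjusted p of a member was 0.507 (edgeR).

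The lowest estimates were those of MAP2K1, MAP4K2 and MAPK3. MAP2K1 had 102, 123 and 133 CPM in APEX1-OE and 130.3, 129.7 and 132 in Ctrl, a log2 fold change of -0.13 (SE 0.182). The low value was that of APEX1-OE replicate 1, and the within-side differences were -0.35 on side A and -0.05 on side B. For MAP4K2 and MAPK3 the log2 fold changes were -0.12 (SE 0.292) and -0.11 (SE 0.325). Within sides both were above 0, with 0.07 and 0.11 for MAP4K2 and 0.21 and 0.07 for MAPK3.

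SPRY2, a feedback inhibitor of the ERK arm whose own transcription ERK raises (ENSG00000136158.10, on chromosome 13 from 80335976 to 80341126 of GRCh38), was the only cascade gene whose groups did not overlap in TMM-scaled CPM, while with upper quartile scaling those of MAP2K1 did not overlap either, APEX1-OE being lower (3.22% of all genes). It had 8.09, 7.65 and 6.51 CPM in APEX1-OE and 6.29, 6.04 and 5.76 in Ctrl, so the lowest APEX1-OE library lay above the highest Ctrl library. Over all genes tested, 1.38% had APEX1-OE entirely higher and 2.01% entirely lower, and 1 of 50 is close to these shares. The log2 fold change of SPRY2 was 0.30 (SE 0.218) and was not called. It was 0.39 on side A and 0.29 on side B, and between 0.22 and 0.38 with each library left out in turn. PLA2G4C (ENSG00000105499.13, on chromosome 19 from 48047843 to 48110817) had the smallest p of the 50 genes without being called, with 8.62, 7.49 and 5.41 CPM in APEX1-OE and 5.58, 5.74 and 5.45 in Ctrl and a log2 fold change of 0.36 (SE 0.248). APEX1-OE replicate 3 lay just under the Ctrl libraries in CPM, while in the deposited FPKM values the groups of PLA2G4C did not overlap. An antisense gene of PLA2G4C had at most 7 counts in a library, and whether strand entered the counting was not given in the sources used here.

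**Figure D5:**
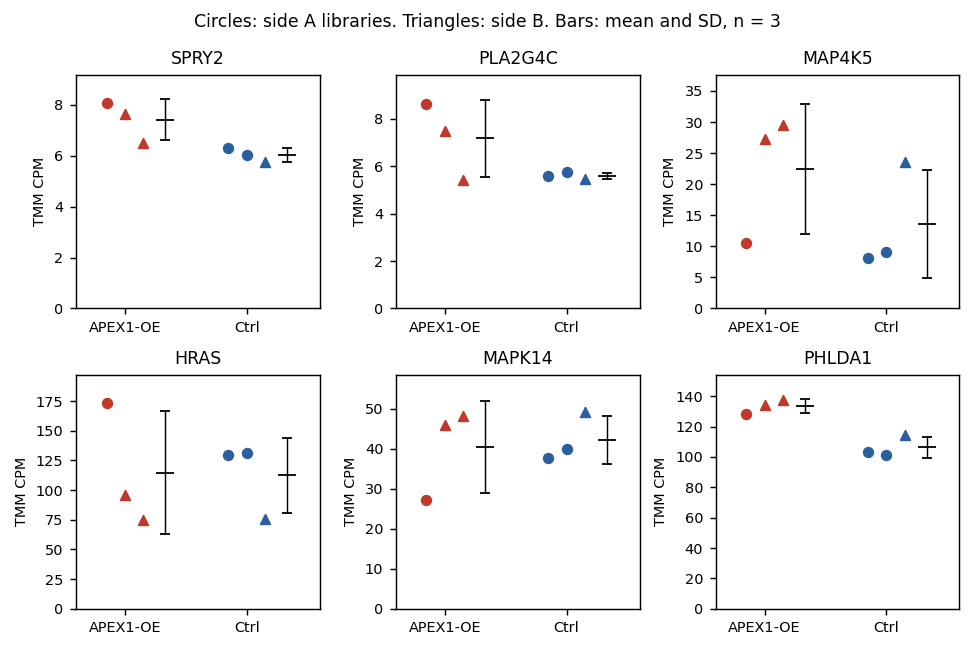
CPM of 6 genes named in the text, with 1 point per library, bars for the mean and SD of each group (n = 3), and circles for side A and triangles for side B. PHLDA1, which is no member of the 50, is from the ERK-responsive list. SPRY2 shows no overlap between APEX1-OE and Ctrl, and MAP4K5 shows a gap between the sides within each group.

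With the side of the library as a term beside the condition, the median SE of the 50 estimates was 0.118, against 0.34 without it. Again 0 of 50 were called, against 0.0236% of all genes, and the smallest adjusted p of a member was 0.350 (edgeR quasi-likelihood test). At an unadjusted p under 0.05, 10 members were higher in APEX1-OE, against 8.61% of all genes, and 1 was lower, against 3.02%. The higher ones were MAP2K3, ECSIT, ARAF, HRAS, MAPK12, PLA2G4C, MAP2K2, MAP4K5, SPRY2 and AKT1, and the lower one was MAPK14. All of the higher ones other than PLA2G4C, MAP4K5 and SPRY2 have a GC content over 55%. Side was taken from these same counts, which limits what its p-values mean, and the term does not remove differences between libraries of the same side.

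MAP2K3 had the smallest p in this fit, with an estimate of 0.38 (SE 0.107, adjusted p = 0.350, edgeR). Its values were 217, 138 and 107 CPM in APEX1-OE and 152, 154 and 102 in Ctrl, and the within-side differences were 0.51 and 0.24. HRAS had 0.29 (SE 0.106) and ARAF 0.27 (SE 0.0985), where the fit without side gave 0.03 and 0.03. MAP2K2 went from 0.0013 to 0.24 and MAP4K5 from 0.72 to 0.28. MAPK14, the p38 alpha gene, had -0.28 (SE 0.116), with -0.52 on side A and -0.06 on side B. The median over the 50 genes was 0.07, against 0.0081 over all genes. It was -0.04 in the class under 45% GC, with 8 of 21 above 0, and 0.24 in the class over 55% GC, with 15 of 15 above 0. For all genes of these classes the medians were -0.07 and 0.15. The order of the classes was thus the reverse of that in the fit without side, where the medians under 45% and over 55% GC were 0.32 and 0.0079 in the cascade and 0.20 and -0.02 over all genes. The part of GC content in the single estimates was not tested.

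Within sides, 25 of 50 members were higher in APEX1-OE on both sides (50%, against 33.1% of all genes) and 5 were lower on both (10.0%, against 22.3%). Side A holds 1 APEX1-OE library and side B 1 Ctrl library, so these differences carry no test of their own. For HRAS they were 0.41 and 0.16, for ARAF 0.27 and 0.27, and for MAPK12 0.23 and 0.33. For NF1 they were 0.00082 and 0.06, for BRAF 0.01 and 0.07, and for RPS6KA3 -0.13 and 0.0047. All 15 members with a GC content over 55%, HRAS, ARAF and MAPK12 among them, were higher in APEX1-OE on both sides. The share over all genes of that GC class was not counted. APEX1-OE replicate 1 lay further out on the first component than the Ctrl libraries of side A. How much of the within-side differences goes with that component was not tested. Of the 21 under 45%, 4 were higher on both sides, 2 were lower on both and 15 had opposite signs, and their values ranged from those of RAP1A (-0.61 and 0.13) and MAPK9 (-0.54 and -0.04) to those of MAP4K5 (0.29 and 0.27).

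The label RASG marks genes with a splicing event that differed between APEX1-OE and Ctrl, and 9 members carry it together with the MAPK pathway annotation. They were chosen on these same samples, so they are not independent evidence. Splicing was not analysed here, and the values are sums over the isoforms of a gene. None of the 9 was called, and 0 had an unadjusted p under 0.05. RAP1B had 1.93, 4.61 and 5.47 FPKM in APEX1-OE and 2.57, 2.39 and 4.41 in Ctrl, MAP3K4 had 0.67, 1.69 and 1.53 FPKM in APEX1-OE and 0.65, 0.70 and 1.46 in Ctrl, and MAPK11 had 7.32, 4.29 and 4.21 FPKM in APEX1-OE and 6.14, 5.68 and 4.04 in Ctrl. MAPK7, the ERK5 gene, had 5.02, 4.25 and 3.46 FPKM in APEX1-OE and 4.42, 4.14 and 3.44 in Ctrl. The low side A values of RAP1B and MAP3K4 and the high ones of MAPK11 and MAPK7 were shared by both conditions. Their log2 fold changes were 0.32, 0.44, 0.01 and 0.09, and those of RASGRF2, AKT1, MAP4K2, PLA2G4C and ECSIT were 0.38, 0.03, -0.12, 0.36 and 0.14. The median was 0.14, and 8 of the 9 were above 0 on both sides, RAP1B being the exception. This stands against 33.1% of all genes and 50% of the 50 members. AKT1, MAPK11, MAPK7 and ECSIT belong to the 15 members with a GC content over 55%, all of which were higher on both sides.

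Transcripts known to follow ERK activity were also not called. This list holds 10 genes, PHLDA1, SPRY2, SPRY4, DUSP4, DUSP6, CCND1, EPHA2, EPHA4, ETV4 and ETV5, of which SPRY2 and SPRY4 are also members of the 50. All 10 were tested, 0 were called, 0 had an unadjusted p under 0.05, 8 estimates lay above 0 and the median was 0.14. PHLDA1, a pleckstrin homology-like protein, had 128, 134 and 138 CPM in APEX1-OE and 103, 101.42 and 114 in Ctrl, and its groups did not overlap, as for SPRY2. Its log2 fold change was 0.33 (SE 0.170), and with side as a term it was 0.29 (SE 0.0858, adjusted p = 0.350, edgeR). In that fit PHLDA1, EPHA2, SPRY2 and ETV4 had an unadjusted p under 0.05, all 4 higher in APEX1-OE, against 8.61% of all genes higher. The 2 genes of the list with groups that did not overlap stand against 1.38% of all genes entirely higher. This list was chosen with earlier results of these data known, and SPRY2 is also counted among the 50. These shares beside those of all genes are thus a description without a test.

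A list of 50 further genes of the pathway was read in the same way. Of these, 47 passed the filter on low counts, 0 were called, 0 had an unadjusted p under 0.05, 31 lay above 0 and the median log2 fold change was 0.05. No gene of the list had APEX1-OE entirely higher, and RASA3 and MRAS had it entirely lower, against 2.01% of all genes. RASA3, a GTPase-activating protein, had 18.2, 18.8 and 19.1 CPM in APEX1-OE and 19.8, 20.2 and 19.4 in Ctrl and a log2 fold change of -0.08 (SE 0.197). MRAS, a RAS-related GTPase, had 15.9, 18.4 and 17.6 CPM in APEX1-OE and 20.6, 19.2 and 19.4 in Ctrl and -0.19 (SE 0.203). With side as a term 6 of the 47 genes were higher at an unadjusted p under 0.05, against 8.61% of all genes, and 0 were lower, against 3.02%.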

How the data were processed

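RNA-seq of 6 A549 libraries was analysed, 3 APEX1-OE and 3 Ctrl, grouped by the sample labels. The authors removed reads holding over 2 N bases, used the FASTX-Toolkit 0.0.13 for trimming, dropped those shorter than 16 nt and mapped the remainder to GRCh38 (tophat2, up to 4 mismatches). Uniquely mapped reads gave the deposited raw counts per gene and the deposited FPKM, which are normalized for length and mapped reads. Counting tool, annotation and strand use: not given in the sources used here.

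Genes were kept by edgeR 4.0.16 filterByExpr (minimum count 10, minimum total 15), scaled by TMM and tested with the robust quasi-likelihood fit over all genes in R 4.3.3, with condition as the only term and Benjamini-Hochberg adjustment at 0.05. Alternatives were DESeq2 1.42.0, limma 3.58.1 on log2(FPKM + 1) and log2(FPKM + 0.1), other scalings and filters, each library left out, the replicate number as a block, and the side of the first component as a term. The edgeR step was tested on simulated counts without the difference between sides, so that test does not show what could be detected in these libraries. Named genes were, in each role, the members with the highest and lowest Ctrl FPKM, members with groups that did not overlap, the RASGs, and the 3 largest estimates in each direction. MAP2K3, MAPK12, MAPK14 and other genes given single values were named after their values were seen. The members and lists were chosen with earlier results of these data known. Depth is the total count per library, 28131955 to 41009197.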

Additional observations from a re-analysis of the deposited data

How the results depend on the processing

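Of the cascade genes, 0 were called in any of the 16 alternatives, and 0 of the other cascade and ERK-responsive genes. Over all genes 1 was called as reported, 10 with no filter on low counts, 4 with library side as a term, and 0 to 1 with each library left out. The log2 fold change of APEX1 lay between 2.36 and 2.46 with each library left out, and its adjusted p (edgeR) missed 0.05 in 4 of these fits. It was 0.118 leaving out APEX1-OE replicate 2, 0.0674 leaving out APEX1-OE replicate 3, 0.210 leaving out Ctrl replicate 1 and 0.207 leaving out Ctrl replicate 2. Leaving out APEX1-OE replicate 1 gave 0.00149 and leaving out Ctrl replicate 3 gave 0.0493 (edgeR), so the call depended on which library was left out. The members with groups that did not overlap were 2 with upper quartile normalization (MAP2K1 lower and SPRY2 higher, with 3.22% of all genes lower and 0.996% higher) and 2 in the deposited FPKM (SPRY2 and PLA2G4C, both higher, with 1.19% of all genes higher), against 1 as reported. In 3 of the other settings the members at an unadjusted p under 0.05 were all higher in APEX1-OE and numbered 5 of 50 without APEX1-OE replicate 1 (5.11% of all genes higher), 4 without Ctrl replicate 3 (MAP4K5, NF1, BRAF and SOS2, 2.94% of all genes) and 1 with no filter (MAP4K5, 1.4% of all genes). Over the 34 named genes, 69 of 537 values had the sign opposite to the reported one and 16 moved by 1 SE or more. The cause was not tested. With SEs of 0.176 to 0.575, small differences of members were not detectable, and larger ones could also be missed. The highest estimate, 0.72 for MAP4K5 (SE 0.519), was not called. Over all genes only APEX1, at 2.42, was called in the fit as reported. The absence of a call thus says little about moderate changes of members.

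Libraries with the same replicate number did not deviate together throughout (correlations of 0.61, -0.52 and 0.70), 3 of 6 correlated best with their own number, and the labels give no shared batch, so the numbers were not read as pairs. With the replicate block 2 genes were called over all genes and 0 members, with 4 members at an unadjusted p under 0.05 (MAP4K5, MAPK6, NF1 and SOS1), all higher, against 2.83% of all genes higher.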

Other observations

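Among the further pathway genes, the adaptor SHC1 was the most abundant, with 201, 178 and 161 FPKM in APEX1-OE and 198, 186 and 159 in Ctrl, above each of the 50 members in Ctrl mean. LAMTOR2, part of the scaffold that holds MAP2K1 on late endosomes, had 93.8, 75.6 and 88.2 FPKM in APEX1-OE and 101.03, 95.7 and 78.0 in Ctrl, and LAMTOR1 had 52.0, 36.3 and 32.4 FPKM in APEX1-OE and 46.7, 45.4 and 31.0 in Ctrl. The kinases MKNK2 and MAPKAPK2, which act below ERK and p38, had Ctrl means of 35.4 and 29.6 FPKM. Genes known from neurons or blood cells were at the low end, with Ctrl means of 0.0667 FPKM for the JNK gene MAPK10, 0.0233 for the scaffold KSR2 and 0.193 for the exchange factor RASGRP2. RASGRF1, MAPK15 and RPS6KA2 did not pass the filter on low counts. These genes were picked after their values were seen, for their levels and not for a difference between the conditions.

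The phosphatases of the ERK feedback differed in level, with 49.2 FPKM for DUSP4 and 2.02 for DUSP6 in Ctrl. CCND1, the cyclin of G1 entry, had 69.7, 105 and 107 FPKM in APEX1-OE and 67.5, 70.4 and 97.5 in Ctrl, and EPHA2, a receptor kinase, had 83.4, 74.7 and 61.8 FPKM in APEX1-OE and 68.0, 71.0 and 56.0 in Ctrl. CCND1 was higher and EPHA2 lower on side B in either condition.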
